A study of Rattus norvegicus with 18 samples.

Results

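Cd274 and 4 related genes, Pdcd1lg2, Cd40, Cd80 and Cd86, encode cell-surface proteins through which one cell tells a T cell to become active or to hold back. They were taken from the deposited expression table by gene symbol, and each matched 1 row, 5 of 32883 rows in all. They were chosen by their TPM values in the LPS and Vehicle libraries, which were already known, so the difference between the groups is described below and not tested. The material was cortical collecting duct, the last tubule segment of the cortex of the rat kidney, which principal and intercalated cells line and where salt, acid and water balance is finely adjusted. The LPS group held ducts microdissected from male Sprague-Dawley rats 3 h after an intraperitoneal injection of lipopolysaccharide, the endotoxin of Gram-negative bacteria. The Vehicle group held ducts from rats of that sex and strain 3 h after normal saline, given by the same route. The labels name no genetic change in either group, and they do not give the LPS dose or the age of the rats. Each group held 3 numbered samples with 3 libraries each, 18 libraries in all, called LPS 1 to 3 and Vehicle 1 to 3 here. The series' design text calls the samples paired, but what a pair shared and whether a sample was 1 animal are not stated. Spread between samples may therefore be technical in part. Values are TPM, a transcript abundance corrected for transcript length and scaled to the same total in each library, so levels of different genes are compared on a per-length scale.

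The libraries carried the markers of the labelled segment. Summed TPM of 9 principal cell markers was 9410 to 13003 in LPS samples and 16622 to 18074 in Vehicle samples, and that of 8 intercalated cell markers was 4490 to 5731 in LPS samples and 6290 to 6470 in Vehicle samples. Thick ascending limb markers summed to 91.1 to 234 TPM in LPS samples and 110 to 152 TPM in Vehicle samples. Of these, Umod had 348 TPM in its highest library. Proximal tubule markers summed to 0.723 to 14.2 TPM in LPS and 0.777 to 15.5 TPM in Vehicle. Fibroblast and mural markers summed to 1.74 to 5.96 TPM in LPS and 5.14 to 10.2 TPM in Vehicle. The number of genes at or above 1 TPM ranged between 11399 and 12704 per library. The depth is unknown, because TPM keeps no read number, and so no counting interval is given. Libraries 2 and 3 of Vehicle 1 stood apart from library 1 of that sample in the immediate response genes Socs3 and Irf1, and library 3 of LPS 3 stood apart in the neutrophil genes S100a8 and S100a9. The ducts are bulk material, in which fewer cells of a type and less RNA per cell cannot be told apart.

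A T cell that meets an antigen on a major histocompatibility complex (MHC) molecule reads further signals from the cell that shows it. CD80 and CD86 bind CD28, which promotes activation, and CTLA-4, which restrains it. PD-L1, the product of Cd274, and PD-L2, the product of Pdcd1lg2, bind PD-1 and restrain the T cell. CD40 works in the other direction: it is a receptor that takes up CD40 ligand from the T cell and signals into the presenting cell through TRAF proteins and NF-kappaB. CD80, CD86 and CD40 are best known from dendritic cells, macrophages and B cells, whereas PD-L1 can also be made by epithelial cells that are exposed to interferons or to NF-kappaB activators.

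Promoter sequences are shown because Cd274 and Pdcd1lg2 are neighbouring genes with very different values in LPS ducts, and because Cd80 and Cd86 share receptors but not a pattern. They are the 250 bases before each start site, 5′ to 3′, from RefSeq on the GRCr8 build, which is not the build of the deposited values (Rnor_6.0). The windows are chr1:236529982-236530231 on the + strand for Cd274 and chr1:236572247-236572496 on the + strand for Pdcd1lg2. Cd80 has 2 listed start sites, with windows at chr11:75797541-75797790 for start 1 and chr11:75797257-75797506 for start 2, both on the - strand. The Cd86 window is chr11:77669031-77669280 on the + strand. Capitals mark matches to 3 motifs, each searched on both strands.
Cd274: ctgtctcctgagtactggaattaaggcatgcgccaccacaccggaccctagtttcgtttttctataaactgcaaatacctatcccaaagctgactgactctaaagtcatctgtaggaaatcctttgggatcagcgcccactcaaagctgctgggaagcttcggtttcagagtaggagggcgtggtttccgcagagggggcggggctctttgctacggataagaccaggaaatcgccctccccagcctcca
Pdcd1lg2: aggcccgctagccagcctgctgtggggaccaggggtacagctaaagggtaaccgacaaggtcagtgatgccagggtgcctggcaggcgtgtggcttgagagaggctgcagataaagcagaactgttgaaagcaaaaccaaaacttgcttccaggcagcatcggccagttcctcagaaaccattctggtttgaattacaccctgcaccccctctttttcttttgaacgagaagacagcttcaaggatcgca
Cd80 start 1: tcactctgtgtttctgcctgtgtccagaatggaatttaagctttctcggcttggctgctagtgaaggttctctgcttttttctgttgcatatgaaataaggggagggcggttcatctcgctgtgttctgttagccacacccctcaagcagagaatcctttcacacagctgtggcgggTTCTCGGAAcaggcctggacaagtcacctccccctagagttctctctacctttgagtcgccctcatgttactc
Cd80 start 2: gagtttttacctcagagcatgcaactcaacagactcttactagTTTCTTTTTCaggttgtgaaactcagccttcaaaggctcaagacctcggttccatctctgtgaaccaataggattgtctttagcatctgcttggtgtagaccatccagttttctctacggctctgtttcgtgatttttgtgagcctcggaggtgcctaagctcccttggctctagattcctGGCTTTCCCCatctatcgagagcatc
Cd86: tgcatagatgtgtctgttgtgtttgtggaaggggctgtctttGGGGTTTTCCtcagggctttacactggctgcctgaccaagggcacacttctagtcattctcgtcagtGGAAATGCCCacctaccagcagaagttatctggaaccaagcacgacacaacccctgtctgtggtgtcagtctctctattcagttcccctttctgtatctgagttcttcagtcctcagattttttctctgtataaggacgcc
The motifs were TTCNNNGAA for STAT factors, GAAA with any 2 bases and a further GAAA for interferon regulatory factors, and GGG with any 5 bases and CC for NF-kappaB. Windows of the same length upstream of all listed starts held them in 7.667%, 3.406% and 42.32% of 33469 cases, so an NF-kappaB match is common. In the Cd80 start 1 window TTCTCGGAA matched the STAT motif at position -73 from the start. In the Cd80 start 2 window TTTCTTTTTC matched the interferon regulatory factor motif at -207 and GGCTTTCCCC the NF-kappaB motif at -26. In the Cd86 window GGGGTTTTCC at -208 and GGAAATGCCC at -141 matched the NF-kappaB motif. The Cd274 and Pdcd1lg2 windows held none of these letter patterns. A match is a description of the letters and no evidence of binding, and a window without one says nothing about sites elsewhere. No motif overlapped another in these windows.

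Cd274 (ENSRNOG00000016112), the PD-L1 gene, was near 0 in Vehicle ducts and abundant in LPS ducts. The libraries of LPS 1 had 60.2, 60.1 and 39.5 TPM, those of LPS 2 had 804, 718 and 612 TPM, and those of LPS 3 had 684, 611 and 797 TPM. The libraries of Vehicle 1 had 0.41, 0.22 and 1.69 TPM, those of Vehicle 2 had 0.26, 0.58 and 0.65 TPM, and those of Vehicle 3 had 1.09, 0.69 and 0.79 TPM. Each LPS library lay above each Vehicle library, and LPS 1 lay far below LPS 2 and LPS 3. Sample means of Cd274 were 53.3, 712 and 697 TPM in LPS 1 to 3 and 0.773, 0.497 and 0.857 TPM in Vehicle 1 to 3. The group means were 487 ± 376 TPM in LPS and 0.709 ± 0.188 TPM in Vehicle (SD, n = 3 each). By mean level Cd274 was row 346 of the table in LPS and row 13015 in Vehicle. The LPS minus Vehicle difference of log2(TPM + 1) was 5.0, 8.90 and 8.55 in pairs 1, 2 and 3, with a mean of 7.48 ± 2.16 (SD, n = 3). This scale understates the difference of a gene near 0 in 1 group, and with a pseudocount of 0.1 in place of 1 the mean was 8.70.

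Pdcd1lg2 (ENSRNOG00000016136), the PD-L2 gene and the next gene after Cd274 on the chromosome, was listed at 0 TPM in all 9 LPS libraries. It was listed at 0 in 8 of 9 Vehicle libraries, and library 3 of Vehicle 1 had 0.05 TPM. The other PD-1 ligand was thus at or near 0 in both groups, and no fold is given.

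Cd40 (ENSRNOG00000018488), the receptor gene, was also near 0 in Vehicle ducts and clearly present in LPS ducts. The libraries of LPS 1 had 15.1, 23.1 and 22.5 TPM, those of LPS 2 had 78.0, 78.7 and 77.8 TPM, and those of LPS 3 had 86.3, 101 and 119 TPM. Vehicle libraries ranged between 0.13 and 1.63 TPM. Both of those extremes were libraries of Vehicle 1, and each LPS library lay above all Vehicle libraries. Sample means of Cd40 were 20.2, 78.2 and 102 TPM in LPS 1 to 3 and 0.963, 0.717 and 0.447 TPM in Vehicle 1 to 3. The means were 66.8 ± 42.1 TPM in LPS and 0.709 ± 0.258 TPM in Vehicle (SD, n = 3 each). The difference of log2(TPM + 1) was 3.50, 5.54 and 6.14 in pairs 1 to 3, with a mean of 5.06 ± 1.39 (SD, n = 3).

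Cd80 (ENSRNOG00000001527), a CD28 and CTLA-4 ligand gene, was low in both groups. The libraries of LPS 1 had 0.22, 0.56 and 0.38 TPM, those of LPS 2 had 7.49, 9.45 and 7.45 TPM, and those of LPS 3 had 4.67, 3.89 and 2.50 TPM. Vehicle libraries ranged between 0.04 and 0.32 TPM. Library 1 of LPS 1 lay within the Vehicle range, its other libraries just above it, and LPS 2 and LPS 3 further above. Sample means of Cd80 were 0.387, 8.13 and 3.69 TPM in LPS 1 to 3 and 0.140, 0.107 and 0.193 TPM in Vehicle 1 to 3. The means were 4.07 ± 3.89 TPM in LPS and 0.147 ± 0.0437 TPM in Vehicle (SD, n = 3 each). The difference of log2(TPM + 1) was 0.28, 3.04 and 1.95 in pairs 1 to 3, with a mean of 1.76 ± 1.39 (SD, n = 3). At values this low the pseudocount sets much of the size, and with 0.1 the mean was 3.38.

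Cd86 (ENSRNOG00000038835), the other CD28 and CTLA-4 ligand gene, had the reverse layout. The libraries of LPS 1 had 25.9, 32.2 and 31.4 TPM, those of LPS 2 had 17.0, 19.2 and 15.2 TPM, and those of LPS 3 had 16.8, 16.9 and 15.1 TPM. The libraries of Vehicle 1 had 26.1, 23.8 and 28.3 TPM, those of Vehicle 2 had 35, 33.7 and 33.3 TPM, and those of Vehicle 3 had 36.9, 28.8 and 29.4 TPM. LPS 1 lay among the Vehicle samples, and LPS 2 and LPS 3 lay below all Vehicle libraries, so the groups overlapped. The means were 21.1 ± 7.58 TPM in LPS and 30.6 ± 4.08 TPM in Vehicle (SD, n = 3 each). The difference of log2(TPM + 1) was 0.18, -0.95 and -0.91 in pairs 1 to 3, with a mean of -0.56 ± 0.65 (SD, n = 3). The median of all 12393 tested genes was -0.38 on that scale. With median-ratio scaling of the libraries, the Cd86 mean was -0.16 and the all-gene median -0.01, and with quantile normalization the Cd86 mean was -0.25 and the median -0.13. The mean Cd86 difference was therefore close to the all-gene median under each scaling. That mean joins 0.18 in pair 1 with -0.95 and -0.91 in pairs 2 and 3, and the single pairs were not set against all genes.

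**Figure D1:**
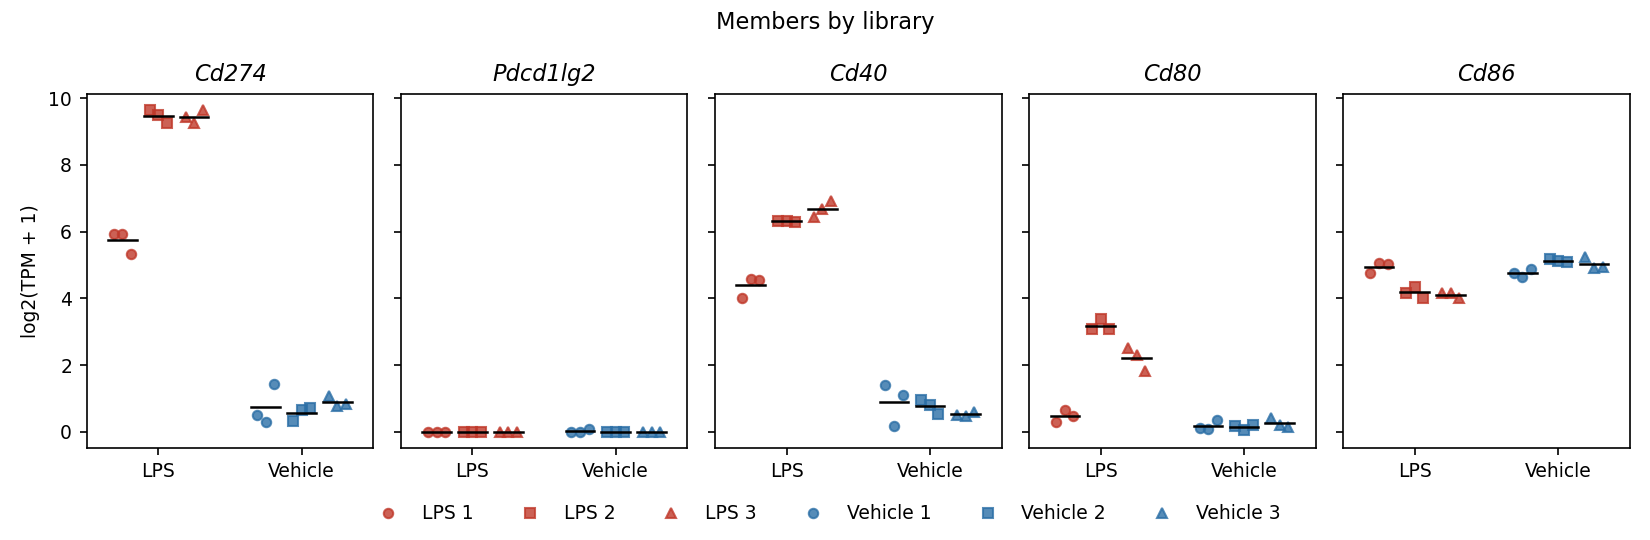
Levels of the 5 genes in each of the 18 libraries, as log2(TPM + 1), with LPS left and Vehicle right in every panel. Points are libraries, their shapes are the numbered samples and black lines are the sample means of log2(TPM + 1). Cd274 and Cd40 are high in LPS 2 and LPS 3 and intermediate in LPS 1, and Cd86 is within the Vehicle range in LPS 1 and below it in LPS 2 and LPS 3.

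The order of levels differed between the groups. In LPS samples the mean levels ran Cd274 (487 TPM), Cd40 (66.8 TPM), Cd86 (21.1 TPM), Cd80 (4.07 TPM) and Pdcd1lg2 (0). In Vehicle samples they ran Cd86 (30.6 TPM), Cd274 and Cd40 (0.709 TPM each), Cd80 (0.147 TPM) and Pdcd1lg2 (0.00556 TPM). Cd274 and Cd40 did not differ beyond their spread in Vehicle. In LPS the ranges over samples of Cd274 and Cd40 overlapped, as did those of Cd40 and Cd86, with LPS 1 low in Cd274 and Cd40 and high in Cd86. Within each LPS sample Cd274 was the highest of the 5. The ratio of Cd274 to Cd86 was 1.79, 41.5 and 42.8 in LPS 1 to 3 and 0.0297, 0.0146 and 0.0270 in Vehicle 1 to 3.

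The LPS samples differed from each other to an unequal extent by gene. The highest LPS sample mean was 13.4 times the lowest for Cd274, 5.04 times for Cd40, 21.0 times for Cd80 and 1.83 times for Cd86. Libraries of 1 sample were much closer, since for Cd274 the highest library was 1.52 times the lowest in LPS 1, 1.31 times in LPS 2 and 1.3 times in LPS 3. For Cd40 the same ratios were 1.53, 1.01 and 1.38. With pair 1 left out, the mean differences of log2(TPM + 1) were 8.72 for Cd274, 5.84 for Cd40, 2.49 for Cd80 and -0.93 for Cd86. Leaving out the 3 libraries that stood apart, an alternative chosen after the data were seen, gave 7.53, 4.85, 1.84 and -0.55 for these 4 genes.

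Of the 5 genes, 4 had a mean of at least 1 TPM over the 18 libraries, the filter for entering the fit across all genes. Cd274, Cd40 and Cd80 passed it through their LPS values alone. For these 3 genes all LPS sample means lay above all Vehicle sample means, which was so for 9.88% of the 12393 tested genes. Since the genes were chosen with these values known, nothing is read from that count. LPS sample means lay below all Vehicle means for 46.9% of tested genes, and for none of the 5.

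Ducts dissected from kidney can carry macrophages and other immune cells, which make these proteins, so their markers are given beside the levels. The summed TPM of 15 macrophage markers was 470, 287 and 224 in LPS 1 to 3 and 270, 130 and 196 in Vehicle 1 to 3. Of these 15 markers, 11 were tested by limma (at the adjusted p given with the gene lists), 5 were called higher in LPS (Adgre1, Fcer1g, Tyrobp, Cd14 and C1qa, against 7.17% of all tested genes), and Csf1r was called lower (against 22.2%). Like every count of calls here, these fall to 0 without pair 3, where limma called 0 genes of the whole table (738 higher and 1463 lower at an unadjusted p under 0.05). Lyz2, Fcer1g and Cd14 were the most abundant. The macrophage sum was largest in LPS 1, the LPS sample in which Cd274, Cd40 and Cd80 were lowest and Cd86 was highest. Its largest part was Lyz2, at 253, 112 and 91.8 TPM in LPS 1 to 3. Of the other tested markers, Fcer1g, Tyrobp, Csf1r, Aif1, C1qa, C1qb and C1qc were also highest in LPS 1. Cd14 (21.0, 43.2 and 28.3 TPM) and Cd68 (4.66, 6.12 and 7.49 TPM) were lowest there, and Adgre1 was highest in LPS 2. Between libraries of 1 sample the sum varied 2.43-fold in LPS 2 and 3.20-fold in LPS 3, where Cd274 varied 1.31-fold and 1.3-fold. Across the 9 LPS libraries, which are 3 libraries of each of 3 samples, Pearson's r of log2 values with the macrophage sum was -0.607 for Cd274, -0.610 for Cd40, -0.561 for Cd80 and 0.650 for Cd86. Across the 9 Vehicle libraries r was 0.411, 0.542, 0.392 and -0.126 for those genes. These values describe the libraries and carry no test. The part of macrophage RNA in the levels of the 5 genes was not tested.

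Markers of other immune cells and of endothelium were less abundant. Of 10 dendritic cell markers 7 were below 1 TPM in all samples, Cd209 was listed at 0 in all libraries, and 2 of the 3 tested markers (Clec10a and Batf3) were called higher, against 7.17% of all tested genes. Their sum was 11.7 to 18.2 TPM in LPS and 4.07 to 5.39 TPM in Vehicle. Of 8 B cell markers 7 were below 1 TPM in all samples, and Cd79a made up most of a sum of 2.80 to 5.24 TPM in LPS and 4.40 to 6.20 TPM in Vehicle. Of 7 T cell markers with a row 5 were below 1 TPM in all samples, and the T cell sum was 2.46 to 5.68 TPM in LPS and 2.46 to 5.36 TPM in Vehicle. Neutrophil markers summed to 2.28 to 86.0 TPM in LPS and 0.73 to 1.92 TPM in Vehicle. Of the 3 tested, 2 (S100a8 and S100a9) were called higher, against 7.17% of all tested genes. The highest sum, that of LPS 3, rests on 1 library, since the libraries of that sample ran between 1.83 and 241 TPM. Endothelial markers summed to 23.9 to 64.7 TPM in LPS and 22.0 to 95.8 TPM in Vehicle, so the ranges of the groups overlapped. Of 8 tested endothelial markers Flt1 was called higher (against 7.17% of all tested genes) and Egfl7 lower (against 22.2%). Batf3, S100a8, S100a9 and Flt1 passed the 1 TPM filter through their LPS values alone, so their calls are no independent support. In LPS 2 and LPS 3 each of these marker sums was below the level of Cd274 alone. In LPS 1 the endothelial sum (64.7 TPM) was above the level of Cd274 (53.3 TPM). The level of Cd80 was below several of the sums. Such sums do not measure the part of a cell type in the values of the 5 genes, which was not tested.

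**Figure D2:**
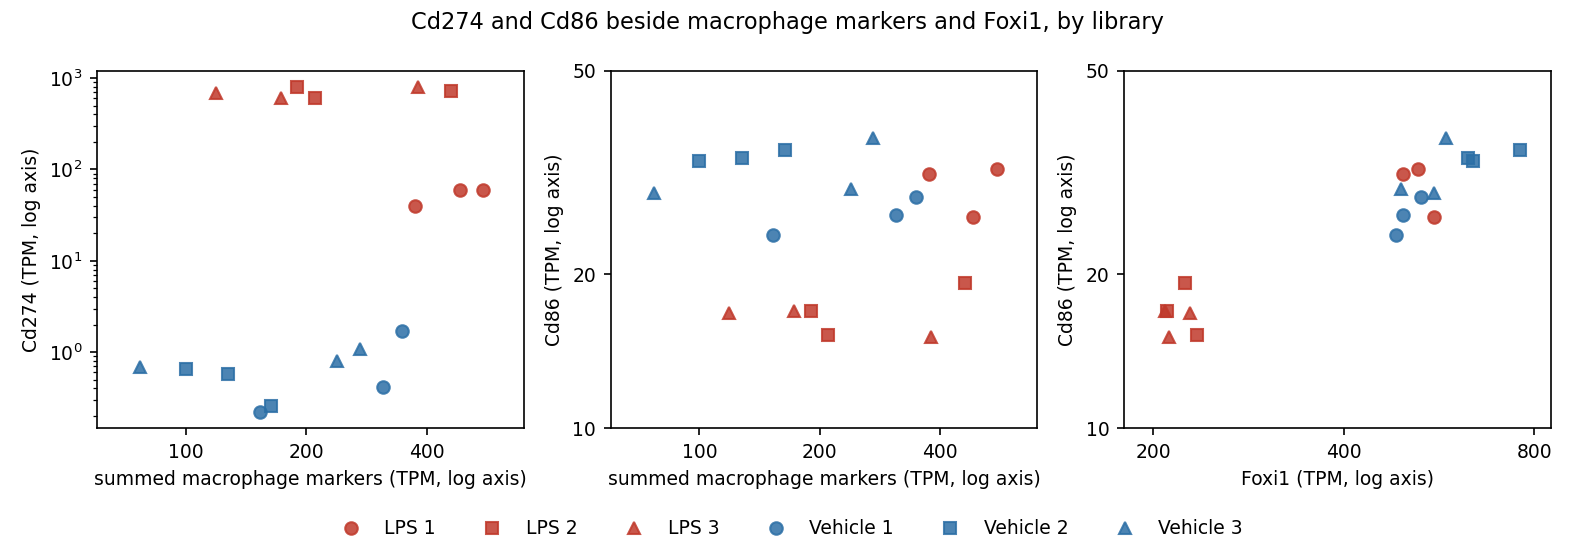
Cd274 (left) and Cd86 (middle) against the summed TPM of 15 macrophage markers, and Cd86 against Foxi1 (right), each point a library and all axes logarithmic. Cd274 of LPS 2 and LPS 3 stays between 611 and 804 TPM over a wide range of the macrophage sum, and for both Cd86 and Foxi1, the gene chosen as nearest to it, LPS 1 sits among the Vehicle libraries and LPS 2 and LPS 3 sit below them.

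The genes most like each of the 5 over the 18 libraries were found by Pearson's r of log2(TPM + 1). Any gene with a large difference between the groups scores high on this measure for Cd274, Cd40 and Cd80, and the 18 libraries come from 6 samples. For Cd274 the nearest named genes were Nlrc5, a regulator of MHC class I genes (r = 0.997), Sphk1, a sphingosine kinase (r = 0.996), and Cxcl9, Cxcl11 and Osmr (r = 0.995 each). Cxcl9 and Cxcl11 encode chemokines for T cells, and Osmr encodes the oncostatin M receptor. The gene ID AABR07025272.1 came first (r = 0.998). Cxcl11 was at 211, 2860 and 2496 TPM in LPS 1 to 3 and averaged 1.27 TPM in Vehicle, and Cxcl9 was at 19.8, 202 and 167 TPM in LPS 1 to 3 and averaged 0.28 TPM in Vehicle, so both shared the low value in LPS 1. Within the 9 LPS libraries the nearest genes to Cd274 were Lypd6b (r = 0.999), Sod2, Sgms2 and Parp8 (r = 0.998 each), and Nampt and Spsb1 (r = 0.997 each). Sod2, the mitochondrial superoxide dismutase gene, was at 693, 2252 and 2086 TPM in LPS 1 to 3 and averaged 275 TPM in Vehicle. Nampt, which encodes an enzyme of NAD synthesis, was at 116, 323 and 304 TPM in LPS 1 to 3 and averaged 39.8 TPM in Vehicle.

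Cd40 lay closest to Trex1, Ninj1 and Cxcl11 (r = 0.991 each), then to Il7, Cd274 and Nlrc5 (r = 0.990 each), over those 18 libraries. Trex1 encodes a DNA exonuclease, Ninj1 a protein of plasma membrane rupture and Il7 a growth factor of lymphocytes. Cd80 lay closest to Tgm1 and Fosl2 (r = 0.982 each), Ngfr (r = 0.975), B4galt1 (r = 0.973), and Cpne8 and Ankrd22 (r = 0.972 each). Ankrd22 was at 4.59, 84.4 and 36.3 TPM in LPS 1 to 3 and averaged 3.11 TPM in Vehicle, with LPS 2 highest as in Cd80. The r of Cd80 with Cd274 was 0.893 and with Cd40 0.858.

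Cd86 lay closest to Foxi1, the gene of a transcription factor of intercalated cells (r = 0.950 over 18 libraries). Foxi1 was at 525, 223 and 217 TPM in LPS 1 to 3 and at 504, 676 and 543 TPM in Vehicle 1 to 3. As for Cd86, LPS 1 was among the Vehicle samples and LPS 2 and LPS 3 were below them. Since Foxi1 was chosen as the nearest gene over these libraries, its r within the groups (0.937 over 9 LPS and 0.787 over 9 Vehicle libraries) is part of that choice. Within LPS, r of Foxi1 was also -0.985 with Cd274, -0.983 with Cd40 and -0.900 with Cd80, and LPS 1 stood apart from LPS 2 and LPS 3 in each of these genes. The other intercalated cell markers did not share a single layout. Slc26a4, the pendrin gene, was at 1635, 1711 and 1175 TPM in LPS 1 to 3 and 1729.6, 1699.5 and 1473 TPM in Vehicle 1 to 3, and the water channel gene Aqp6 was at 94.4, 103 and 113 TPM in LPS 1 to 3 and 123, 147 and 147 TPM in Vehicle 1 to 3. Kit was at 47.8, 26.7 and 31.7 TPM in LPS 1 to 3 and 66.2, 68.7 and 81.1 TPM in Vehicle 1 to 3. In Kit, Atp6v0d2 and Rhcg, LPS 1 was the highest LPS sample, though below all Vehicle samples. Of 8 intercalated cell markers 2 (Atp6v0d2 and Kit) were called lower, against 22.2% of all tested genes, and Foxi1 was not. With the endothelial sum r of Cd86 was 0.418 within LPS and -0.657 within Vehicle. Other genes near Cd86 were Lrpap1, which encodes a chaperone of lipoprotein receptors, and Tm9sf1 (r = 0.945 each), LOC498222 (r = 0.939), and Mybl2 and Dhrs3 (r = 0.936 each). Cd86 and the macrophage gene Csf1r had ratios of 13.0, 15.4 and 16.0 in LPS 1 to 3 and 4.88, 13.7 and 7.61 in Vehicle 1 to 3.

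For genes outside the 5, LPS was compared with Vehicle by limma (sample means of log2(TPM + 1), the sample number as a block, two-sided). Calls were made at a Benjamini-Hochberg adjusted p under 0.05 over 12393 tested genes. Among all tested genes, 889 were called higher (7.17%) and 2757 lower (22.2%), 29.4% in all. The split was 851 higher and 458 lower under median-ratio scaling and 797 and 558 under quantile normalization. It was 419 and 296 without pair 2. Without pair 3, and with libraries summarised by their median, limma called 0 and 0, with 738 and 1463 genes, and 1019 and 4167 genes, at an unadjusted p under 0.05. The list counts below inherit this dependence. The lists were chosen with earlier results of these data known, so their shares called are a description and no independent support.

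The chromosomal neighbours of Cd274 were examined over 10 genes on each side in RefSeq order. Besides Pdcd1lg2, all 19 had a row in the table and 12 were tested, of which Jak2 was called higher (8.33%, against 7.17% of all tested genes) and Cdc37l1 lower (8.33%, against 22.2%). Their median difference was -0.51, against -0.38 for all tested genes. The count of neighbours called lower depended on the fit. It was 5 of 12 without the block, 7 with all 18 libraries and 6 without pair 1. Of all 12393 tested genes, 3624, 5295 and 3595 were called lower in these fits. For the neighbours the count was 0 without pair 2 and without pair 3 (0 and 0 unadjusted, limma). It was also 0 without the 3 libraries that stood apart and under both scalings (5, 0 and 2 unadjusted, limma). Jak2, which encodes a kinase of interferon and cytokine receptors, lies on the side opposite to Pdcd1lg2. It was at 21.1, 93.0 and 82.6 TPM in LPS 1 to 3 and 15.3, 12.9 and 16.6 TPM in Vehicle 1 to 3, so LPS 1 was above the Vehicle samples by a small margin only. Its difference was 1.81 (log2, SE 0.42, limma adjusted p = 0.0252). The adjusted p was 0.0663 under median-ratio scaling, 0.0605 under quantile normalization, 0.126 without pair 2 and 0.0536 without the 3 libraries that stood apart.

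Cdc37l1, a relative of a gene for a kinase chaperone, was at 22.6, 15.8 and 15.1 TPM in LPS 1 to 3 and 30.1, 28.4 and 30.6 TPM in Vehicle 1 to 3 (log2 difference -0.72, SE 0.20, limma adjusted p = 0.038). It lost its call under median-ratio scaling (adjusted p = 0.139), under quantile normalization (0.108), without pair 2 (0.232) and without the 3 libraries (0.0837). The abundant neighbours Ak3, a mitochondrial adenylate kinase gene, Plpp6 and Ermp1 were not called, but Plpp6 was called lower without the block (adjusted p = 0.0693 with it and 0.0406 without). Ak3 was at 612, 457 and 482 TPM in LPS 1 to 3 and 653, 718 and 599 TPM in Vehicle 1 to 3. Plgrkt, whose gene model overlaps that of Cd274, was at 11.2, 6.90 and 7.73 TPM in LPS 1 to 3 and 13.9, 14 and 13.4 TPM in Vehicle 1 to 3. It was not called with the block (adjusted p = 0.0615) and was called lower without it (0.0412). The sources used here do not say that counting used strand, so reads in the overlap of these 2 genes cannot be told apart. Il33, an alarmin gene on the other side, stayed at 1.00 TPM or less in all samples, and Mir101-2 was listed at 0.

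**Figure D3:**
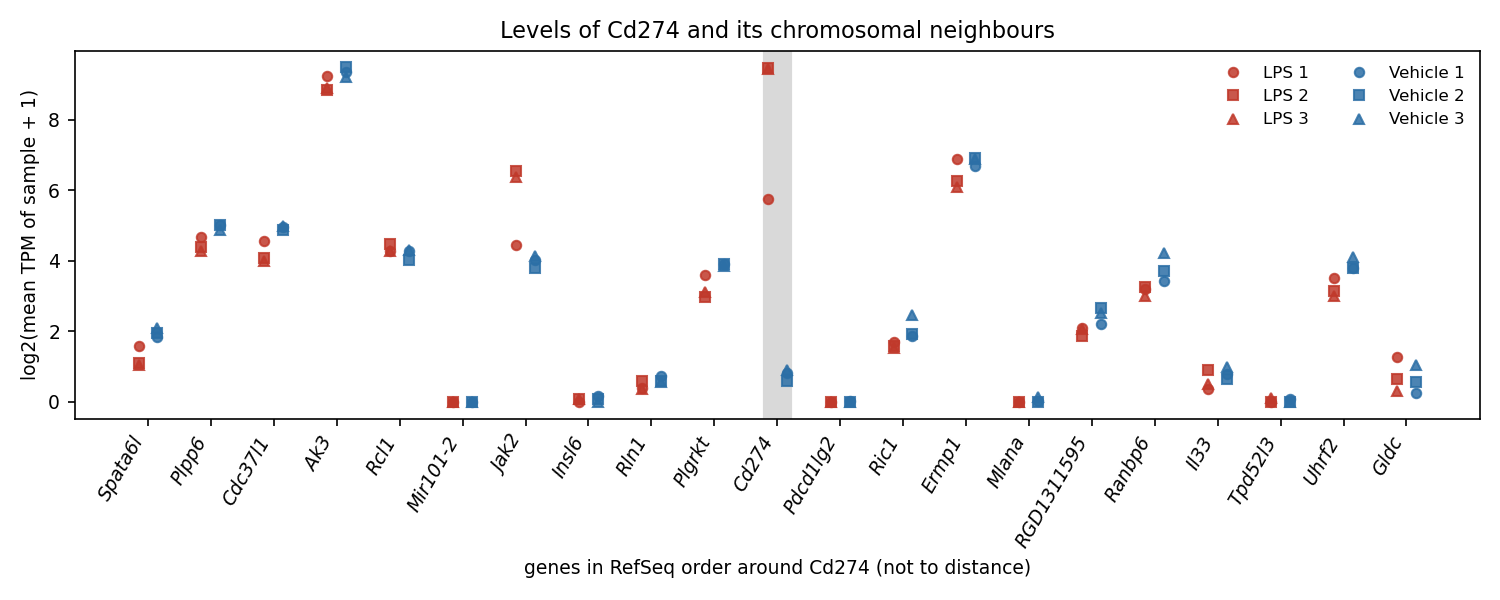
Sample means, as log2(mean TPM + 1), of Cd274 (grey band) and the 10 genes on either side in RefSeq order, not to distance, with LPS left and Vehicle right for each gene. Cd274 and Jak2 are the genes with LPS 2 and LPS 3 far above the Vehicle samples, and Pdcd1lg2 is at 0 in both groups.

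Other ligands and contacts through which tissue cells speak to T cells were higher in LPS more often than lower. Of 26 listed genes 25 had a row and 14 were tested, of which 9 were called higher (64.3%, against 7.17% of all tested genes) and 0 lower by limma (0 at an unadjusted p under 0.05). A gene near 0 in Vehicle enters the test only when it is higher in LPS, so this share is not that of all 25. Icam1, the adhesion molecule for T cell integrins, was at 359, 449 and 478 TPM in LPS 1 to 3 and 15.3, 6.84 and 7.70 TPM in Vehicle 1 to 3, a difference of 5.39 (log2, SE 0.28, limma adjusted p = 0.0002). Unlike Cd274, it was nearly as high in LPS 1 as in the other LPS samples. Lgals9, whose product galectin-9 binds TIM-3, was at 103, 253 and 257 TPM in LPS 1 to 3 and 22.7, 5.65 and 13.1 TPM in Vehicle 1 to 3 (log2 3.89, SE 0.51, adjusted p = 0.005).

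Pvr and Nectin2, which encode ligands of TIGIT and DNAM-1, were both called higher. Pvr was at 27.8, 83.9 and 78.2 TPM in LPS 1 to 3 and 9.21, 9.48 and 10.8 TPM in Vehicle 1 to 3 (log2 2.43, SE 0.30). Nectin2 was at 185, 205 and 207 TPM in LPS 1 to 3 and 80.9, 94.1 and 111 TPM in Vehicle 1 to 3 (log2 1.07, SE 0.15). Icoslg, the ICOS ligand gene, was at 9.58, 15.7 and 16.5 TPM in LPS 1 to 3 and 2.85, 5.14 and 5.86 TPM in Vehicle 1 to 3 (log2 1.41, SE 0.20), and Tnfsf15, a cytokine gene of the tumour necrosis factor family, averaged 28.8 ± 2.53 TPM in LPS and 11.2 ± 2.7 TPM in Vehicle (SD, n = 3 each). Cd47, the phagocytosis checkpoint gene, averaged 548 ± 62.2 TPM in LPS and 384 ± 55.7 TPM in Vehicle (log2 0.52, limma adjusted p = 0.04), with adjusted p = 0.095 under quantile normalization. Nectin3 and Tnfrsf14 were the other called genes, and Tnfrsf14 passed the filter through its LPS values alone. Cd48, at 53.2 ± 25.0 TPM in LPS and 60.3 ± 18.1 TPM in Vehicle, was not called. The untested genes included Tnfsf4, Tnfsf9, Cd70 and Fgl1, each under 1 TPM in all samples, Vsir, the VISTA gene, which lay the other way, at 0.487, 0.0733 and 0.317 TPM in LPS 1 to 3 and 2.27, 0.837 and 1.11 TPM in Vehicle 1 to 3, and Ido1, a tryptophan-degrading enzyme gene kept in the list as it was written, which stayed at or below 0.417 TPM. The count of genes called higher was 5 without pair 2 and 0 without pair 3 (8 at an unadjusted p under 0.05).

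Most receptor genes of the T cell side of these contacts were low in the ducts. Of 18 listed receptor genes, all in the table, 2 were tested. Pdcd1, the PD-1 gene, was at most 0.12 TPM in any sample, Cd28 at most 0.0933 TPM, Ctla4 at most 0.117 TPM and Cd40lg at most 0.01 TPM. Tnfrsf18, the GITR gene, was not tested, at 0.32, 1.63 and 1.38 TPM in LPS 1 to 3 and 0.107, 0.0867 and 0.167 TPM in Vehicle 1 to 3. Tnfrsf9, the CD137 gene, was called higher, at 0.873, 9.69 and 10.2 TPM in LPS 1 to 3 and 0.210, 0.227 and 0.140 TPM in Vehicle 1 to 3 (log2 2.35, SE 0.52, limma adjusted p = 0.0232). It passed the 1 TPM filter through its LPS values alone, so a gene with its Vehicle level could enter the fit only by being higher in LPS, and the call is no independent support. Its adjusted p was 0.0684 under median-ratio scaling, 0.0629 under quantile normalization and 0.082 without pair 2. Icos was at 1.3 ± 0.0907 TPM in LPS and 2.16 ± 0.379 TPM in Vehicle (SD, n = 3 each) and was not called.

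Genes of the routes known to drive transcription of Cd274 in other cells, namely interferon receptors, JAK and STAT proteins, interferon regulatory factors and NF-kappaB subunits with their feedback inhibitors, were mostly higher in LPS. All 24 listed genes were tested, 18 were called higher (75.0%, against 7.17% of all tested genes) and 1 lower (4.17%, against 22.2%). As the list was written with earlier results of these data known, nothing is read from this share. The median difference was 1.86 against -0.38 for all genes. Myc, called higher, averaged 20.7 TPM in LPS and 0.701 TPM in Vehicle. It passed the 1 TPM filter through its LPS values alone, so its call is no independent support. Irf1, a factor downstream of interferon gamma, was at 658, 2561 and 2029.8 TPM in LPS 1 to 3 and 110, 18.4 and 24.5 TPM in Vehicle 1 to 3 (log2 5.52, SE 0.65, limma adjusted p = 0.0034). LPS 1 was low and Vehicle 1 was high among their groups for this gene. Socs1, which encodes an inhibitor of JAK signalling, was at 105, 571 and 534 TPM in LPS 1 to 3 and 7.06, 1.94 and 2.31 TPM in Vehicle 1 to 3 (log2 6.25, SE 0.68). Socs3 and Stat3 were called higher although their sample levels overlapped between the groups. Socs3 was at 62.3, 385 and 306 TPM in LPS 1 to 3 and 146, 5.73 and 13.0 TPM in Vehicle 1 to 3. Its limma adjusted p was 0.0443, against 0.109 under median-ratio scaling, 0.112 under quantile normalization and 0.169 without pair 2.

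The non-canonical NF-kappaB subunit genes had a flatter layout. Relb was at 195, 188 and 178 TPM in LPS 1 to 3 and 6.64, 9.74 and 8.13 TPM in Vehicle 1 to 3 (log2 4.38, SE 0.19), and Nfkb2 was at 161, 139 and 133 TPM in LPS 1 to 3 and 8.66, 11.2 and 10.7 TPM in Vehicle 1 to 3 (log2 3.7, SE 0.19). For both, LPS 1 was at least as high as LPS 2 and LPS 3, whereas for Cd274 it was the lowest. Irf2 averaged 47.2 ± 6.46 TPM in LPS and 13.1 ± 1.18 TPM in Vehicle, Irf9 144 ± 4.15 TPM in LPS and 32.8 ± 6.62 TPM in Vehicle, and Usp18, which encodes a brake on interferon receptors, 276 ± 80.2 TPM in LPS and 6.7 ± 4.0 TPM in Vehicle (SD, n = 3 each). All 3 were called higher. Of the interferon receptor genes, Ifngr2 and Ifnar2 were called higher and Ifngr1 (log2 -0.10) and Ifnar1 (log2 -0.02) were not called. Hif1a, the hypoxia factor gene, was called lower (log2 -0.78, SE 0.19, limma adjusted p = 0.0296), a call absent under median-ratio scaling (adjusted p = 0.235) and quantile normalization (0.0729). The count called higher was 12 without pair 2 and 0 without pair 3 (15 at an unadjusted p under 0.05).

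Genes that handle the PD-L1 protein after it is made had no such layout. All 18 were tested, 1 was called higher (5.56%, against 7.17% of all tested genes) and 5 lower (27.8%, against 22.2%), with a median of -0.46 close to the -0.38 of all genes. Cmtm6, which keeps PD-L1 on the cell surface, was at 121, 202 and 199 TPM in LPS 1 to 3 and 105, 103 and 107 TPM in Vehicle 1 to 3 (log2 0.68, SE 0.19, limma adjusted p = 0.0418). Its adjusted p was 0.0603 under median-ratio scaling, 0.071 under quantile normalization, 0.212 without pair 2 and 0.0957 without the 3 libraries that stood apart. Its relative Cmtm4 was called lower, at 6.47 ± 0.627 TPM in LPS and 16.3 ± 7.30 TPM in Vehicle (SD, n = 3 each; log2 -1.09, SE 0.26, adjusted p = 0.0264).

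Other genes called lower included Adam10, which encodes a sheddase, Stt3a, which encodes a subunit of the N-glycosylation enzyme, and the kinase gene Gsk3b. Adam10 averaged 14.3 ± 1.15 TPM in LPS and 30.7 ± 6.40 TPM in Vehicle (SD, n = 3 each). Under median-ratio scaling limma called 0 of the 18 lower (5 at an unadjusted p under 0.05), and under quantile normalization 2. Stub1, a ubiquitin ligase gene, at 252 ± 18 TPM in LPS and 265 ± 1.54 TPM in Vehicle, and Rab11a, of the recycling endosome, at 259 ± 39.8 TPM in LPS and 235 ± 12.7 TPM in Vehicle, were not called. Without pair 2 limma called 0 higher and 0 lower (0 and 5 unadjusted), and without pair 3 likewise 0 and 0 (0 and 2 unadjusted). Without pair 1 it called 2 higher and 8 lower, where 1004 and 3595 of all 12393 tested genes were called.

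Downstream of CD40, 7 of 16 tested genes were called higher (43.8%, against 7.17% of all tested genes) and 0 lower by limma (2 at an unadjusted p under 0.05), with a median of 0.63. These genes serve tumour necrosis factor and Toll-like receptors too, so the list is not specific to CD40. Birc3, the gene of a TRAF-bound ubiquitin ligase, was at 355, 520 and 429 TPM in LPS 1 to 3 and 5.63, 5.64 and 5.31 TPM in Vehicle 1 to 3 (log2 6.04, SE 0.18). Tnfaip3, the A20 gene and a brake on NF-kappaB, was at 12.5, 34.8 and 35.1 TPM in LPS 1 to 3 and 2.23, 0.917 and 0.770 TPM in Vehicle 1 to 3 (log2 3.59, SE 0.42). Nfkbia and Nfkbie, NF-kappaB inhibitor genes, were called higher, Nfkbie at 276 ± 9.0 TPM in LPS and 28.7 ± 3.38 TPM in Vehicle (SD, n = 3 each; log2 3.25, SE 0.16).

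Map3k14, the NIK gene of the non-canonical route, was called higher at 2.79 ± 0.448 TPM in LPS and 0.876 ± 0.144 TPM in Vehicle (SD, n = 3 each), as were Birc2 and Tank. Map3k14 passed the filter through its LPS values alone. The TRAF genes that bind CD40 were not called. Traf2 had limma adjusted p = 0.132, against 0.0313 under median-ratio scaling and 0.0538 under quantile normalization. Traf5 was at 38.3, 83.2 and 66.4 TPM in LPS 1 to 3 and 33.7, 32.1 and 45.5 TPM in Vehicle 1 to 3 (log2 0.69, limma adjusted p = 0.0751), and Traf6 had a difference of -0.67 (log2, adjusted p = 0.0545). Bcl2l1, a survival gene, was at 95.1, 42.5 and 50.5 TPM in LPS 1 to 3 and 94.4, 162 and 129 TPM in Vehicle 1 to 3 (log2 -1.08, adjusted p = 0.0508), and it was called without the block (adjusted p = 0.0385). The count called higher was 9 under median-ratio scaling, 4 without pair 2 and 0 without pair 3 (6 at an unadjusted p under 0.05).

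Among genes of MHC class II, whose antigen display the co-signals accompany, those called higher differed by 0.78 to 2.30 (log2). Of 12 tested genes 4 were called higher (33.3%, against 7.17% of all tested genes) and 1 lower (8.33%, against 22.2%), with a median of 0.48. With all 18 libraries and an estimated correlation 2 were called higher. Ciita, the master activator gene of class II, was at 0.990, 7.31 and 9.30 TPM in LPS 1 to 3 and 0.127, 0.0733 and 0.137 TPM in Vehicle 1 to 3 (log2 2.30, SE 0.47, limma adjusted p = 0.0191), with LPS 1 lowest as for Cd274. Ciita passed the 1 TPM filter through its LPS values alone, so its call and its place in the 33.3% are no independent support. Its adjusted p was 0.0603 under median-ratio scaling and 0.0554 under quantile normalization. Cd74, the invariant chain gene, had the opposite order, at 390, 253 and 214 TPM in LPS 1 to 3 and 199, 140 and 175 TPM in Vehicle 1 to 3 (log2 0.78, SE 0.16, adjusted p = 0.0188). The class II chain gene RT1-Ba was called higher (adjusted p = 0.0372) although its sample levels overlapped between the groups, and it was not called without the block (0.0577), without the 3 libraries that stood apart (0.0619) or without pair 2 (0.143). The protease gene Ctss was called higher too and averaged 16.1 ± 2.83 TPM in LPS and 4.91 ± 1.78 TPM in Vehicle (SD, n = 3 each).

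RT1-Da, at 64.5, 37.9 and 31.3 TPM in LPS 1 to 3 and 28.3, 21.8 and 32.3 TPM in Vehicle 1 to 3, and RT1-Db1 were not called (limma adjusted p = 0.0782 and 0.168). Under median-ratio scaling they had adjusted p = 0.0369 and 0.0497. Rfxank, a subunit gene of the class II promoter complex, was called lower (log2 -0.77, SE 0.22, adjusted p = 0.0395), but not under median-ratio scaling (adjusted p = 0.151) or without the block (0.0549), and Rfxap was not called. Reads of RT1 genes are shared among close copies by estimate, so their single values are uncertain. The sample order of Cd74, RT1-Da and RT1-Bb in LPS, with LPS 1 highest and LPS 3 lowest, was also that of the macrophage sum (470, 287 and 224 TPM). Ciita, Ctss, RT1-Ba and RT1-Db1 had other orders in LPS. In Vehicle the order of Cd74 was again that of the macrophage sum, and those of RT1-Da and RT1-Bb were not. The part of macrophage RNA in the values of this list was not tested. Without pair 2 and without pair 3 limma called 0 higher and 0 lower (4 and 0 unadjusted in both cases).

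**Figure D4:**
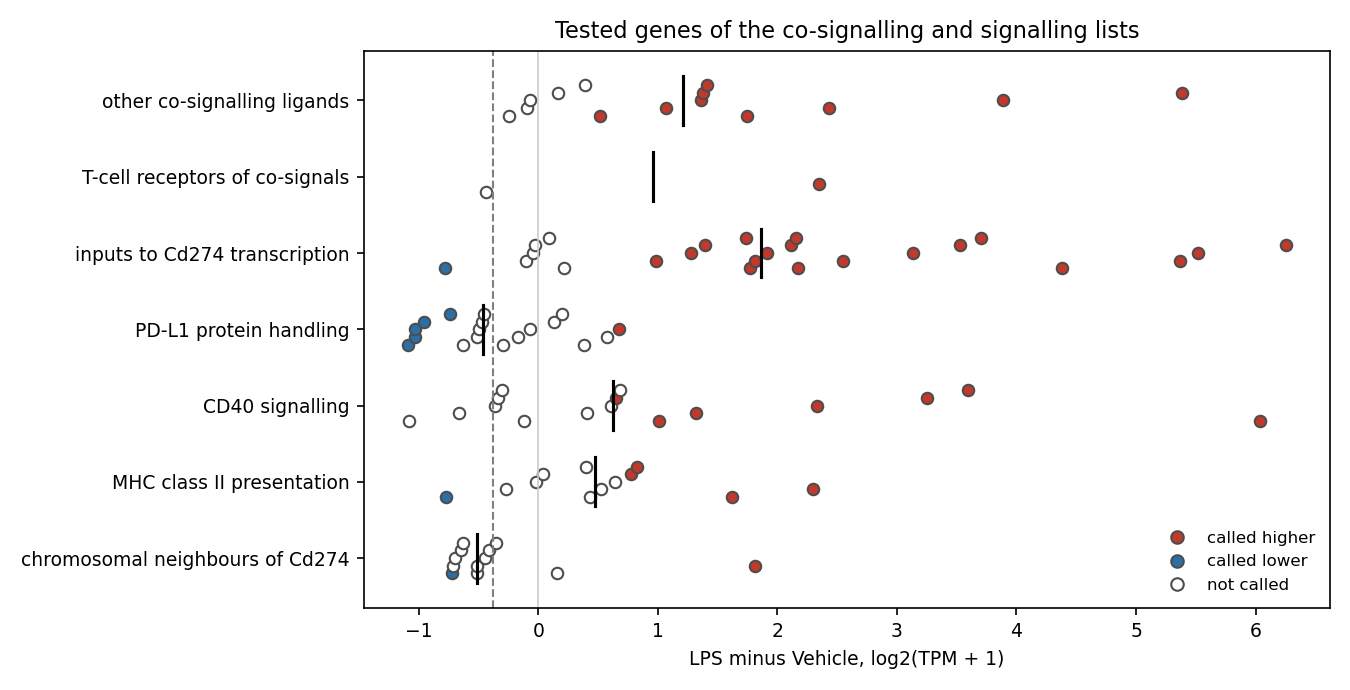
LPS minus Vehicle difference of log2(TPM + 1) for each tested gene of the 7 lists, filled where called and open where not, with black bars at list medians and a dashed line at the median of all tested genes (-0.38). Inputs to Cd274 transcription have a median of 1.86, and PD-L1 protein handling and the chromosomal neighbours sit near the dashed line.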

How the data were processed

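The authors deposited TPM for 32883 Ensembl genes, with a column for each library. STAR 2.7.9a, RSEM 1.3.3 and the build Rnor_6.0 are named in the submitters' processing notes. The sources used here give neither an annotation release nor a filter. Per the labels' protocols, cDNA was made with an ultra-low-input kit, amplified by PCR and tagmented. Columns whose names begin with N were read as normal saline and those with L as LPS, with their numbers as sample and library. There were 0 columns of other samples and 0 identical pairs of libraries. TPM keeps no read number, so depth and counting error are unknown, and RSEM divides reads among close copies of a gene by estimate.

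The deposited TPM were transformed to log2(TPM + 1), the mean of each numbered sample's 3 libraries was taken, and groups were compared by limma 3.58.1 in R 4.3.3 with a variance trend and with the sample number as a block, following the paired design that the series states. Deviations from the group means correlated weakly across genes between same-numbered samples (r = 0.0622, -0.0175 and 0.0686), so the pairing rests on that text. Genes averaging at least 1 TPM over 18 libraries entered the fit (12393 genes), leaving 20490 out. The fit left 2 residual degrees of freedom with a prior worth 4.97. The script was checked on simulated data with known changes. As nothing says that samples came from separate animals, p-values reflect only how these samples vary.

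The 5 genes and all lists were chosen with earlier results of these data known. Genes named from a list were the 6 called genes of smallest p and those averaging at least 20 TPM in either group, up to 8 per list. Not every gene named by this rule is reported here. A few further genes (such as the T cell receptors, Nectin3, Tnfrsf14, Vsir, Slc26a4, Aqp6, Plgrkt, Il33, Traf6 and Ifngr1) were named after their values were seen. Likeness was Pearson's r, with 6 genes named each. Alternatives were the fit without the block, 18 libraries with an estimated correlation, the median over libraries, a pseudocount of 0.1, no filter, a 5 TPM filter, 2 scalings, leaving out each pair, and, added after the data were seen, leaving out 3 libraries. Promoters came from RefSeq (GRCr8).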

Additional observations from a re-analysis of the deposited data

How the results depend on the processing

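The differences of Cd274, Cd40, Cd80 and Cd86 kept their sign under all alternatives, except that Cd80 could not be fitted with a 5 TPM filter; the Cd80 difference was 3.38 with a pseudocount of 0.1. Leaving out each pair gave 6.78 to 8.72 for Cd274, 4.52 to 5.84 for Cd40, 1.12 to 2.49 for Cd80 and -0.93 to -0.37 for Cd86. Counts of calls moved far more. With the median over libraries, limma called 0 genes in the table and in each list (1019 higher and 4167 lower unadjusted). Without a filter it called 18 higher and 2 lower in the table (1382 and 5352 unadjusted), 1 co-signalling ligand, 2 inputs to Cd274 transcription and 2 CD40 signalling genes higher, and 0 in the remaining lists and directions. With 18 libraries, an estimated correlation and the replicate block, genes called lower were 5295 in the table, 9 for PD-L1 protein handling, 2 for CD40 signalling and 7 for the neighbours, and 2 MHC class II genes were called higher. Under median-ratio scaling 458 genes were called lower in the table and 0 of each list, with Tnfrsf9 and the neighbour Jak2 no longer called higher (0 of each list). Quantile normalization gave 558 lower in the table and 2 for PD-L1 protein handling, and 0 lower for the inputs, MHC class II and the neighbours, with 0 higher for the T-cell receptors, PD-L1 protein handling and the neighbours. With a 5 TPM filter 0 T-cell receptors were tested, so none could be called, and 1 CD40 signalling gene was called lower. Without the 3 libraries that stood apart, PD-L1 protein handling had 0 higher, MHC class II 0 lower, the neighbours 0 and 0, and CD40 signalling 1 lower.

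Without the replicate block limma called 912 genes higher and 3624 lower, with 1 CD40 signalling gene, 5 neighbours and 0 MHC class II genes lower; the sample numbers pair by the design text only. Leaving out each pair gave 0 to 1004 genes higher and 0 to 3595 lower in the table (738 and 1463 unadjusted at the lowest). The ranges of genes called higher were 0 to 8 for the ligands, 0 to 1 for the receptors, 0 to 18 for the inputs, 0 to 2 for protein handling, 0 to 7 for CD40 signalling, 0 to 3 for MHC class II and 0 to 1 for the neighbours. The ranges called lower were 0 to 1 for the inputs, 0 to 8 for protein handling, 0 to 1 for CD40 signalling, 0 to 1 for MHC class II and 0 to 6 for the neighbours. The cause of these shifts was not tested. Depth is unknown, which limits what can be said of genes at low TPM, such as Pdcd1lg2 in both groups and Cd80 in Vehicle.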
